A study of Mus musculus with 18 samples.

Results

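The late phase of reprogramming was followed in mCherry+ cells from day 8 to day 18 of doxycycline, on 6 of the 18 arrays of the series: the 2 day 18 arrays, 1 for each reprogramming cassette, against the 4 day 8 arrays, 2 for each cassette. The cells were mouse embryonic fibroblasts (MEFs) in which the ROSA locus drives a reverse tetracycline transactivator and GFP reports on Nanog, and every group carried both alleles. A piggyBac transposon delivered either OKMS, with the short Klf4 cDNA and here called low-KLF4, or OK+9MS, with the longer Klf4 cDNA and called high-KLF4. Both cassettes also encode Oct4 (Pou5f1), Myc and Sox2, respond to doxycycline, which was given at 1 µg/mL in ES cell medium, and express mCherry together with the factors. The groups were low-KLF4 day 8 (n = 2), low-KLF4 day 18 (n = 1), high-KLF4 day 8 (n = 2) and high-KLF4 day 18 (n = 1). The sort for mCherry sets a limit on the model, because cells that have silenced the transgene, as fully reprogrammed cells do, are not in the sample. The study's scheme includes a passage on day 8, and the arrays cannot tell its effect from that of time. The arrays from 4 iPSC clones and 2 mESC samples are used only as levels to set beside day 18.

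Reprogramming factors first act on the genes of the starting fibroblast and on epithelial genes, and the genes of the pluripotent state follow later. Naive pluripotency is kept by Nanog, Esrrb, Tfcp2l1 and others, while Otx2, Fgf5 and Dnmt3b are known from the formative state that cells pass through on the way to the germ layers. Nodal, a TGF-beta family ligand, signals with its co-receptors Tdgf1 and Cfc1 through SMAD proteins and FOXH1, induces its own inhibitors Lefty1 and Lefty2, and in the embryo directs formation of mesendoderm and the anterior endoderm that secretes Cer1 and Dkk1. The comparison asks which of these programs moved late in both cassettes, and which in 1 cassette alone.

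Signal is the RMA-summarised intensity of a probe set on a linear scale, and differences are given in log2 units with day 18 minus day 8, so that 1 unit is a doubling. Across 23410 probe sets with a gene symbol, a limma fit with cassette as a block called 313 higher on day 18 (1.34%) and 250 lower (1.07%) at a Benjamini-Hochberg adjusted p of 0.05. Without adjustment 2006 and 2655 had p under 0.05. The largest rises were those of Car4, Cer1, Otx2 and Tpbpa, and the largest falls those of Krt6b, Aldh1a1, Ano3 and Shisa3. All 313 higher probe sets had both day 18 signals above all 4 day 8 signals, against 3102 probe sets that did so among all tested (13.3%). Of the 250 lower ones, 241 had both below, against 3745 of all tested (16.0%). These counts use the same arrays as the calls, so they describe the called probe sets and are no separate test of them. The fit treats the arrays as independent, but the deviations of same-numbered day 8 arrays correlated at 0.735. From which experiment each day 18 array came is not given. The standard errors (SE) and p values of this fit, here and below, therefore may not cover the spread between experiments. The fit has 3 residual degrees of freedom, and its calls depended on single arrays. They numbered 25 higher and 3 lower without the first low-KLF4 day 8 array, 82 and 21 without the second, 21 and 1 without the first high-KLF4 day 8 array, and 25 and 2 without the second. Without the low-KLF4 day 18 array 5 and 0 were called (1251 and 1416 at an unadjusted p under 0.05), and without the high-KLF4 day 18 array 26 and 1. Leaving out both day 8 arrays numbered 1 gave 0 and 0 calls in limma (2541 and 3145 unadjusted), and leaving out both numbered 2 gave 719 and 703.

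**Figure D1:**
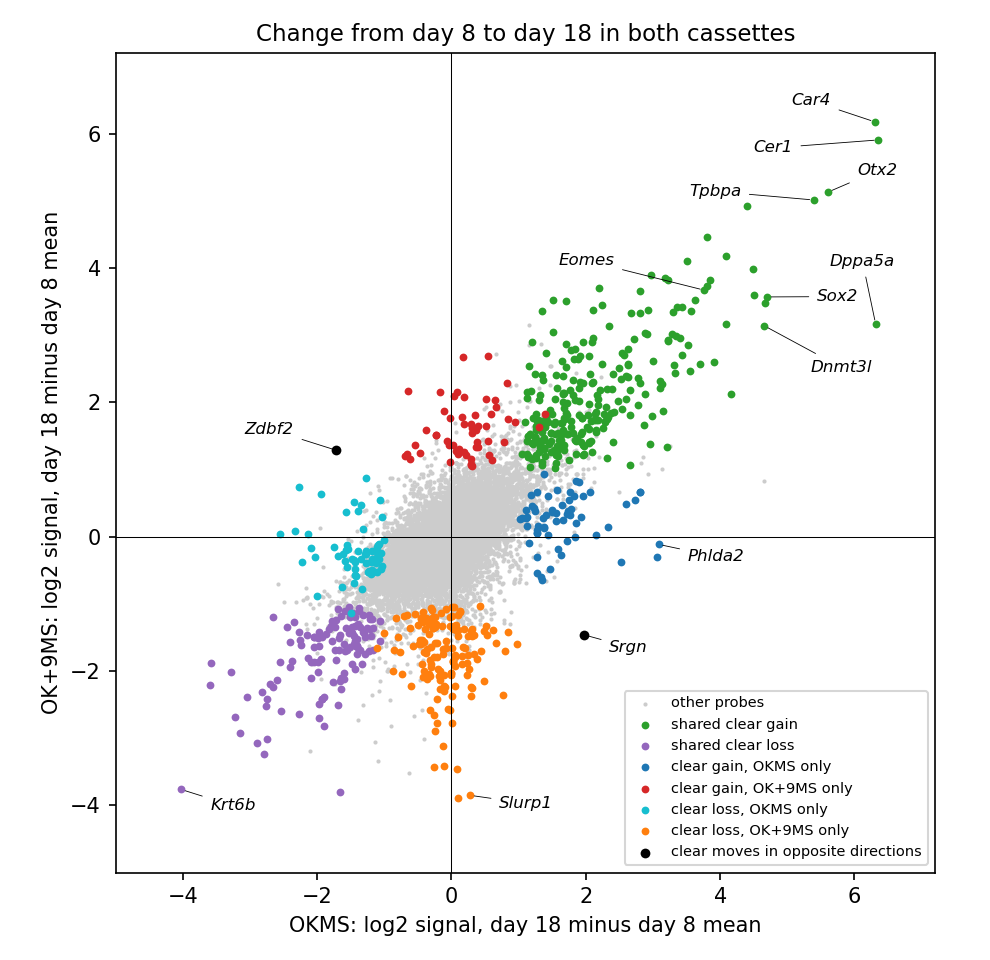
Change from day 8 to day 18 in log2 units in high-KLF4 cells (vertical axis) against low-KLF4 cells (horizontal axis), each the day 18 array minus the mean of 2 day 8 arrays, with 1 point for each of 23410 probe sets. Colours mark the shared and single-cassette gains and losses, and black marks the 2 probe sets that moved in opposite directions, Srgn and Zdbf2. Car4, Cer1, Otx2 and Tpbpa lie at the upper right and Krt6b at the lower left.

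To sort shared changes from those of 1 cassette, a clear gain was a day 18 signal at least 2-fold above the higher of that cassette's 2 day 8 signals, and a clear loss was one at least 2-fold below the lower. This is a description with no test, since each cassette has 1 day 18 array. Low-KLF4 cells had 452 clear gains (1.93%) and high-KLF4 cells 444 (1.90%), of which 261 were shared (1.11%). The shared gains made up 57.7% of the low-KLF4 gains and 58.8% of the high-KLF4 gains. Clear losses numbered 394 in low-KLF4 (1.68%) and 355 in high-KLF4 (1.52%), and 120 were shared (0.513%), or 30.5% and 33.8% of each cassette's losses. The limma fit called 197 of the 261 shared gains and 77 of the 120 shared losses.

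The labelled state of the cells was first checked on the factors that the cassettes carry. Pou5f1 signals were 9341 and 10378 on day 8 and 4752 on day 18 in low-KLF4, and 8256 and 10568 then 5264 in high-KLF4, beside 4339 to 4449 in the iPSC clones. Both day 18 signals lay below all day 8 signals (-0.94, SE 0.14, limma adjusted p = 0.0506). Klf4 lay between 792.7 and 1038 on all 6 arrays, with a common change of -0.03 (SE 0.10). The names low-KLF4 and high-KLF4 refer in the study to KLF4 protein, and the RNA signal of this probe set did not follow them. The 3 low-KLF4 arrays (1038, 973.6 and 977.9) lay above the 3 high-KLF4 arrays (792.7, 905.5 and 831.0). So they did on day 2 (1027 and 819.9) and day 4 (762.6 and 658.3). Keratinocytes (926.4 and 958.2) and mESCs (931.1 and 1100), which carry no cassette, had similar signals. Protein was not measured on the arrays. Myc differed by -0.65 (SE 0.14, adjusted p = 0.0951). Sox2 stood apart from these: it rose from 122.9 and 95.4 to 2813 in low-KLF4 and from 174.7 and 120.3 to 1720 in high-KLF4 (4.13, SE 0.32, adjusted p = 0.0156), with the iPSC clones at 4368 to 5265. On day 2 Pou5f1 lay at 9348 in low-KLF4 and 8494 in high-KLF4, and Sox2 at 128.8 and 104.1, though each cassette encodes both. Keratinocytes, which carry no cassette, had 73.6 and 64.3 for Pou5f1, and 62.1 and 59.8 for Sox2. How far each probe set also reads the cassette's own cDNA was not tested. Nanog, whose reporter marks reprogrammed cells, was at 2565 and 2464 on day 8 and 2557 on day 18 in low-KLF4. In high-KLF4 it was at 887.6 and 963.1, then 2381, and the iPSC clones at 5975 to 6755 lay above every mCherry+ array of these days. Nanog's common change was 0.69 (limma adjusted p = 0.326). In bulk samples such as these, fewer cells of a type and less RNA per cell cannot be told apart.

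A microRNA cluster was among the shared gains and is shown for its sequences. Of 274 probe sets naming a single miRNA gene, limma called 4 higher and 0 lower (the same fit called 313 and 250 of all 23410), and the 4 were Mir302b, Mir302c, Mir302a and Mir302d, which lie within 462 bases of chromosome 3 (GRCm38.p6, 127545228 to 127545689, plus strand). They were singled out after their values were seen. The miR-302 family is known as a microRNA group of pluripotent and early embryonic cells. The mature sequences from RefSeq follow, with the seed (bases 2 to 8) in capitals.
miR-302b-3p: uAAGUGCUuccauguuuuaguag
miR-302d-3p: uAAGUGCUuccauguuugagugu
miR-302c-3p: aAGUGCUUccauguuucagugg
miR-302b-5p: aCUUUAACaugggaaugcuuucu
miR-302c-5p: gCUUUAACaugggguuaccugc
miR-302d-5p: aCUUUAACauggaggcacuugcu
miR-302a-5p: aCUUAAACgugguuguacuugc
By the capitals, miR-302b-3p and miR-302d-3p share 1 seed, which the seed of miR-302c-3p matches when moved by 1 base, and the 5p arms of miR-302b, miR-302c and miR-302d share another. The Mir302b signal went from 23.3 and 26.6 to 72.6 in low-KLF4 and from 23.2 and 24.9 to 99.4 in high-KLF4 (1.80, SE 0.15, adjusted p = 0.018). It was 30.9 to 62.6 in the iPSC clones and 24.8 and 24.2 in the mESCs, so both day 18 arrays lay above all of them. Mir302d rose by 1.54 (SE 0.08, adjusted p = 0.00801), from 29.5 and 28.8 to 85.1 and from 27.3 and 27.1 to 78.7. Mir302a and Mir302c rose by 1.40 and 1.30. All 4 probe sets read RNA of the precursor region and not the mature strands, at signals close to the lowest of the array (20.2).

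Among protein-coding genes, the single largest rise was that of Car4, a membrane-anchored carbonic anhydrase. Its signal was 65.8 and 66.1 on day 8 and 5207 on day 18 in low-KLF4, and 74.4 and 64.3 then 4996 in high-KLF4 (6.24, SE 0.10, limma adjusted p = 0.00077). The iPSC clones lay at 2704 to 3669 and the mESCs at 853.1 and 493.0, below both day 18 arrays. Cer1, a secreted inhibitor of Nodal, BMP and Wnt ligands, went from 54.9 and 51.5 to 4349 and from 54.9 and 50.0 to 3141 (6.13, SE 0.14, adjusted p = 0.000946). The iPSC clones were at 47.4 to 50.6 for Cer1, close to its day 8 level. Otx2, a homeobox factor of the epiblast and anterior embryo, rose from 66.3 and 59.3 to 3061 and from 86.9 and 84.8 to 3007 (5.37, SE 0.14, adjusted p = 0.00115). The clones lay at 592.4 to 786.4 and the mESCs at 628.1 and 532.6 for Otx2, again below day 18.

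**Figure D2:**
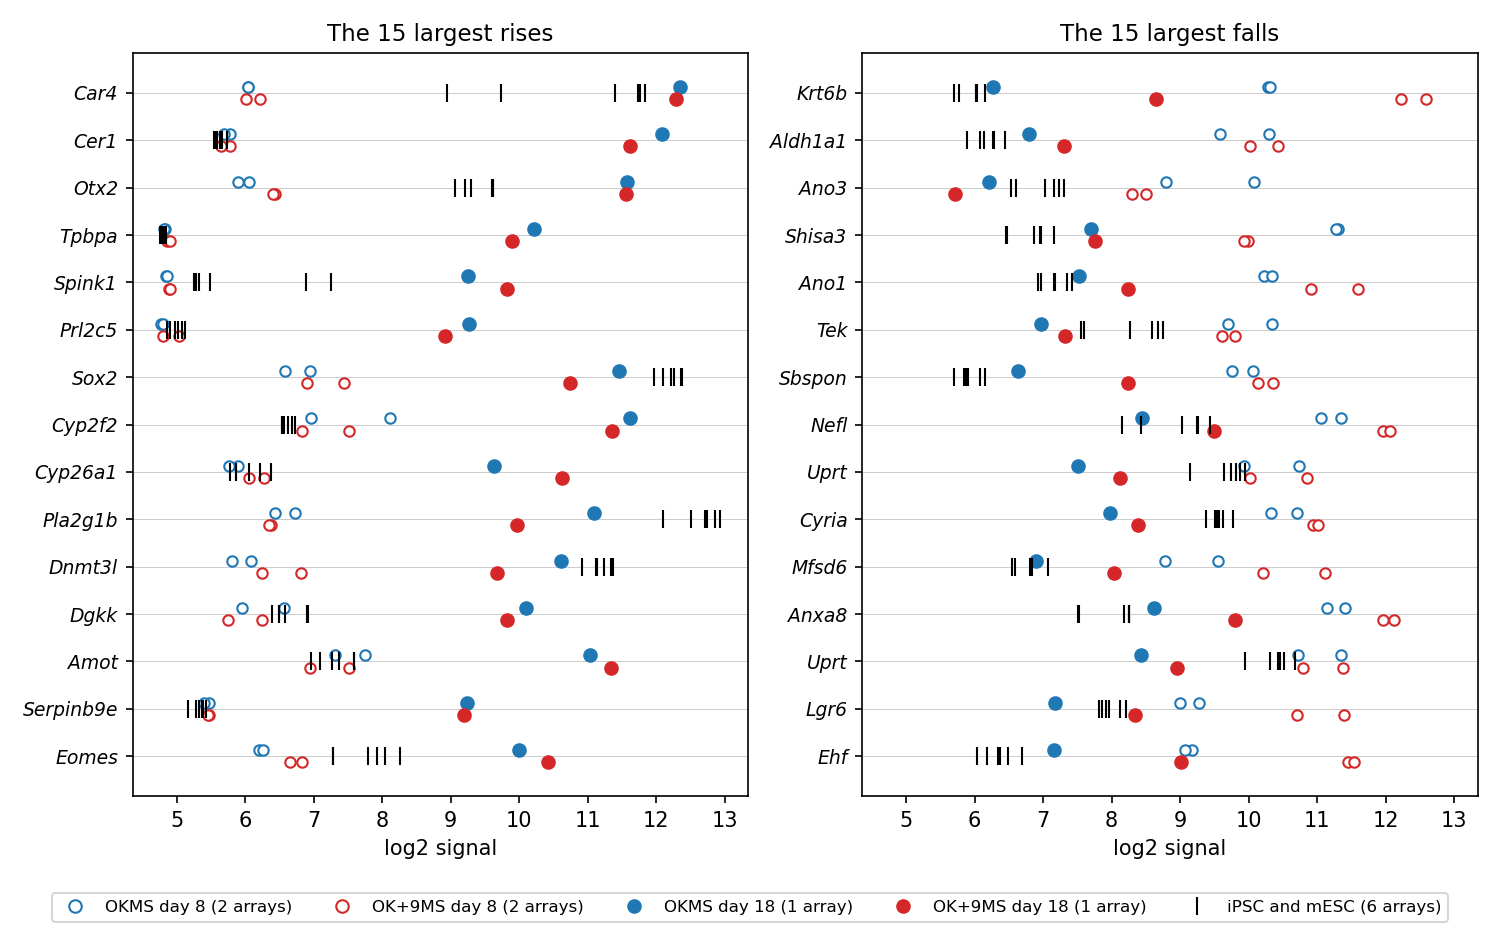
Log2 signal on the 6 arrays of the 15 largest rises and 15 largest falls past the limma test, with open marks for day 8 and filled marks for day 18, low-KLF4 (OKMS) in blue, high-KLF4 (OK+9MS) in red, and the 6 iPSC and mESC arrays as black ticks. In each gene shown the day 18 marks lie outside all 4 day 8 marks.

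Promoter sequence is shown for 4 of the genes the results turn on: Car4 and Tpbpa as 2 of the largest rises, Fgf5 as a formative-state gene and Tek as a large fall. Each window runs from 250 bases before to 50 bases after a RefSeq start (GRCm38.p6) and is written in the direction of the gene, with matches to 9 short motifs, searched on both strands, in capitals.
Car4 (chr11:84957504-84957803, plus strand): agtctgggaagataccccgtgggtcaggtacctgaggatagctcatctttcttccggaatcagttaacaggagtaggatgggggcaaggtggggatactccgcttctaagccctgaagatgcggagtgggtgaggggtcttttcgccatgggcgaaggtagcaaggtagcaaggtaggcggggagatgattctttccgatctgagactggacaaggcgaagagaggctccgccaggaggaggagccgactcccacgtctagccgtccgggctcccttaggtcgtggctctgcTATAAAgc
Tpbpa (chr13:60941887-60942186, minus strand): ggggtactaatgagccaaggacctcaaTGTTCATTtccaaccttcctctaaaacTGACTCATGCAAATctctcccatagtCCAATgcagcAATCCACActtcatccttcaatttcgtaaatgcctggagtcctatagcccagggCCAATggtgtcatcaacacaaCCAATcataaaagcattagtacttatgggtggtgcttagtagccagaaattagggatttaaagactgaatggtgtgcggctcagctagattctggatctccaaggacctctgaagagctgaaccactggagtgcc
Fgf5 (chr5:98253934-98254233, plus strand): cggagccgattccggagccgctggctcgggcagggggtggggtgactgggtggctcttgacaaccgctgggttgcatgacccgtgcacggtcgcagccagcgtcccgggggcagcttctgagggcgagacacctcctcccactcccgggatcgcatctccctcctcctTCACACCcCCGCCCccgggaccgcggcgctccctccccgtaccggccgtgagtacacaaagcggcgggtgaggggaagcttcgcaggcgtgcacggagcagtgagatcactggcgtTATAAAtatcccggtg
Tek (chr4:94739039-94739338, plus strand): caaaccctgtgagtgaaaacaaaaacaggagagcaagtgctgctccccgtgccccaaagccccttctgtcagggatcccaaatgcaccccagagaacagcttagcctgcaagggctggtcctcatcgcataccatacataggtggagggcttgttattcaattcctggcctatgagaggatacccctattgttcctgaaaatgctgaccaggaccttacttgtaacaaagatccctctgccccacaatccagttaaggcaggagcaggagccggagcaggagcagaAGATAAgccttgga
The Car4 window holds a TATA box (TATAAA). The Tpbpa window holds an octamer (ATGCAAAT) overlapping an AP-1 motif (TGANTCA), 2 FOXH1-type motifs (TGTNNATT or its complement) and 3 CCAAT boxes. The Fgf5 window holds TCACACC as a T-box motif, a GC box (GGGCGG) and another TATA box. The Tek window holds AGATAA, which GATA factors bind. Such matches are common, and a match is not evidence of binding. The octamer was in 1.83% of 218 windows of shared gains, 0.877% of 114 windows of shared losses and 1.6% of all 19177 windows. The FOXH1-type motif was in 10.6%, 8.77% and 9.71% of these, the T-box motif in 4.13%, 2.63% and 3.7%, and AGATAA in 11%, 11.4% and 9.25%. The AP-1 motif was in 5.96% of windows of shared gains and 10.5% of shared losses, beside 6.9% of all. A KLF-type motif (GGGTGTGG) was in 4.13%, 4.39% and 3.73%, the GC box in 53.2%, 57% and 49.2%, the CCAAT box in 30.7%, 29.8% and 37.4%, and TATAAA in 11.9%, 10.5% and 11.5%. The windows cover 162 of 220 genes of the shared gains and 92 of 110 of the shared losses, counting genes that a probe set names alone.

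Of 37 measured genes of the pluripotency network, 9 rose by the limma test, 0 fell, and the median change was 1.24, beside -0.01 over all probe sets. The test called 1.34% of all probe sets higher and 1.07% lower, the shares to set beside this and each later list. In the list 28 had an unadjusted p under 0.05 in the upward direction, and 14 were clear gains in both cassettes. Besides Otx2 and 4 genes of the Nodal pathway given with that list, those that rose were Utf1, Gdf3, Dppa3 and Zfp42. Utf1, a chromatin-associated factor of pluripotent cells, rose by 2.01 (SE 0.14, adjusted p = 0.0135), to 6099 in low-KLF4 and 3913 in high-KLF4, and lay at 8815 to 9029 in the iPSC clones. Zfp42 (Rex1), a marker of naive cells, was low on every mCherry+ array: 51.5 and 49.7 then 129.0, and 64.6 and 70.6 then 131.0, beside 174.2 to 369.8 in the iPSC clones and 2386 and 2237 in the mESCs. Dppa3 (Stella) likewise ended at 175.7 and 122.9, with the clones at 610.0 to 730.2.

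Several genes of the network differed widely between the days but did not pass the limma test. Dppa5a, an RNA-binding protein of pluripotent cells, went from 83.6 and 89.4 to 6885 in low-KLF4 and from 460.4 and 498.1 to 4296 in high-KLF4, and the common change of 4.74 had an adjusted p of 0.0511. Lin28a, the inhibitor of let-7 maturation, differed by 2.28 (adjusted p = 0.0814). Esrrb, a nuclear receptor of naive cells, differed by 3.13 in low-KLF4 and by 1.00 in high-KLF4 (common change 2.07, adjusted p = 0.107). Dppa2, a DNA-binding partner of Dppa4, differed by 3.14 (adjusted p = 0.0506). The lowest change in the list was that of L1td1, an RNA-binding protein, at -0.76 (adjusted p = 0.0555).

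Of 17 measured genes of the Nodal, BMP and ID list, 5 rose and 1 fell (all probe sets: 1.34% and 1.07%), with a median of 0.72 and 13 positive changes. The second day 8 array minus the first was -0.74 in low-KLF4 and -0.51 in high-KLF4 as a median over the list, close in size to the list's own median. The 5 that rose were the ligands Nodal and Gdf3, the co-receptor Tdgf1 and the inhibitors Lefty1 and Lefty2. The ligand Nodal went from 200.5 and 249.9 to 965.7 in low-KLF4 and from 158.6 and 143.7 to 748.9 in high-KLF4 (2.21, SE 0.13, adjusted p = 0.0101). Its co-receptor Tdgf1 (Cripto) went from 579.5 and 473.5 to 5310 and from 503.4 and 302.1 to 3091 (3.16, SE 0.25, adjusted p = 0.0155). Tdgf1 remained below the iPSC clones (8634 to 9068). The inhibitors followed: Lefty1 rose by 3.52 (SE 0.21), from 146.7 and 112.3 to 1169 and from 123.9 and 145.4 to 1936, and Lefty2 by 3.18 (SE 0.17). The fifth that rose was Gdf3, a related ligand (2.10, SE 0.22). Id4, an inhibitor of helix-loop-helix factors, was the member that fell, from 754.3 and 825.0 to 262.8 and from 943.4 and 954.8 to 439.6 (-1.35, SE 0.14, adjusted p = 0.0255). Id1 and Id3, which respond to BMP, had no common direction beyond their day 8 spread (0.20, SE 0.58, and 0.95, SE 0.70).

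Outside the list, and named after their values were seen, further genes known from Nodal signalling and the gastrula rose in both cassettes. Foxh1, the DNA-binding partner of the SMADs, rose by 2.96 (adjusted p = 0.0118), to 1080 and 995.9, above the iPSC clones at 525.0 to 645.0. Lhx1 and Dkk1, which act in the anterior endoderm, also rose (adjusted p = 0.00975 and 0.00259). Lhx1 reached 663.9 and 964.0 from 91.7 to 109.3, and Dkk1 reached 784.3 and 847.9 from 104.5 to 119.4 (2.83, SE 0.10). In the iPSC clones they lay at 82.1 to 97.6 and 108.7 to 120.0, near day 8. Fgf5, the ligand used to mark the post-implantation epiblast, went from 116.9 and 106.0 to 874.2 in low-KLF4 and from 119.9 and 81.4 to 1468 in high-KLF4 (3.43, SE 0.27, adjusted p = 0.0162). Fgf8, Gsc and Cfc1 rose by 2.05, 1.45 and 1.63. Cyp26a1, which breaks down retinoic acid, rose to 798.1 from 59.6 and 54.6 and to 1575 from 66.4 and 77.5 (4.13, SE 0.18, adjusted p = 0.00503). Chemokine receptor Cxcr4, a marker of definitive endoderm, reached 363.9 and 582.3 from 90.8 to 105.7 (2.27, SE 0.20, adjusted p = 0.0201).

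Endoderm transcription factors rose, but the secreted products of later endoderm were not among them. Of 16 measured endoderm markers 7 rose and 0 fell (all probe sets: 1.34% and 1.07%), with a median of 0.63. The 7 were Foxq1, Gata6, Gata4, Foxa2, Sox17, Sox7 and Hnf4a. Foxa2, a forkhead factor of endoderm and the node, went from 122.7 and 118.7 to 380.4 in low-KLF4 and from 120.5 and 110.8 to 505.6 in high-KLF4 (1.89, SE 0.14, adjusted p = 0.0142). Gata6, a factor of primitive and definitive endoderm, reached 989.9 and 963.1 from 182.7 to 275.1 (2.00, SE 0.19, adjusted p = 0.0227). Sox17 ended at a lower signal, 200.5 and 229.0 from 53.2 to 63.5 (1.84, SE 0.12, adjusted p = 0.0118). Alpha-fetoprotein (Afp) and transthyretin (Ttr), which visceral endoderm and liver secrete, differed by 0.00 and 0.04, and Lama1, a laminin of the basement membrane, was the lowest of the list with an adjusted p of 0.242. Foxa1, counted with the 18 epithelial transcription factors, rose by 2.20 (SE 0.13, adjusted p = 0.0101), to 456.2 and 403.9.

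Placental genes rose as well, while Cdx2 and Elf5, factors of trophoblast stem cells, did not pass the test. Of 14 measured trophoblast markers 6 rose and 0 fell (all probe sets: 1.34% and 1.07%), with a median of 1.04, and the same 6 were clear gains in both cassettes. Tpbpa, a marker of the spongiotrophoblast, went from 28.5 and 28.2 to 1192 in low-KLF4 and from 29.1 and 29.9 to 950.7 in high-KLF4 (5.20, SE 0.12, adjusted p = 0.000946). Eomes, a T-box factor of both trophoblast and mesendoderm, went from 73.4 and 76.9 to 1020 and from 100.8 and 114.1 to 1365 (3.72, SE 0.10, adjusted p = 0.00115). Rhox9 and Rhox6, X-linked homeobox genes, rose by 3.63 and 1.85, Plac1 by 3.07 and the imprinted retrotransposon-derived gene Peg10 by 1.91. Cdx2 differed by 0.71 (adjusted p = 0.0555), Gata3 by 0.78, Hand1 by 0.64 and Elf5 by 0.14. Prl2c5, of the prolactin family that the placenta expresses, was among the 15 largest rises (4.24, SE 0.15, adjusted p = 0.00259), from 27.4 and 27.9 to 619.1 and from 28 and 32.9 to 482.1. Its near-identical paralogs may share its probes, and keratinocytes gave 797.9 and 748.3.

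**Figure D3:**
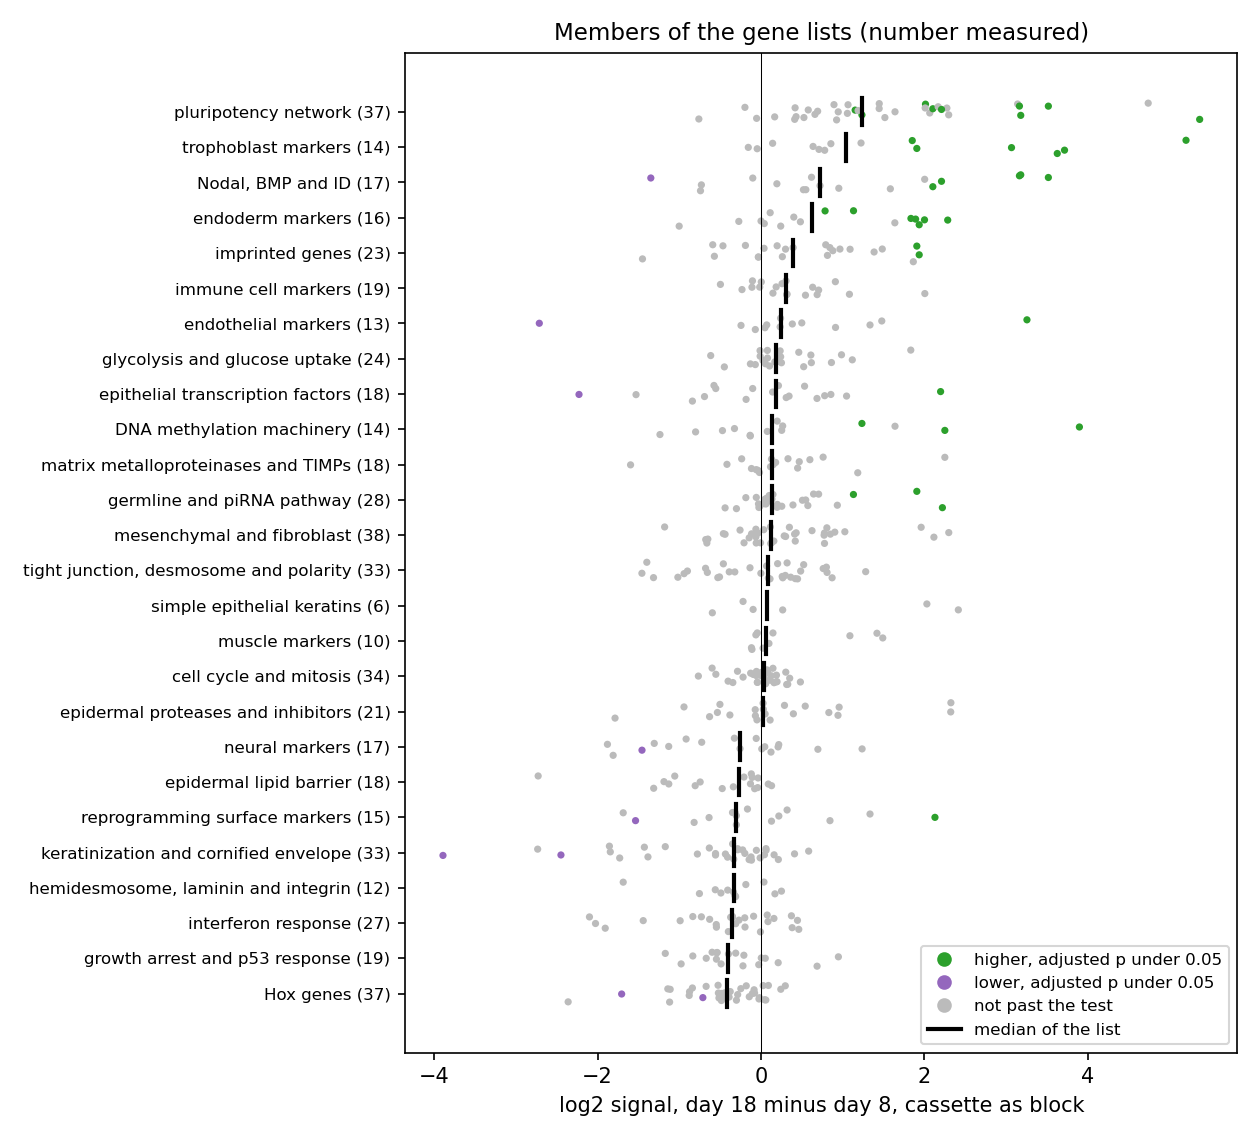
Change from day 8 to day 18 in log2 units (horizontal axis) of each measured gene of the lists (1 row each, with the number measured), with the list's median as a black bar, genes past the limma test in green (higher) or purple (lower), and the others grey. The pluripotency, trophoblast, Nodal and endoderm lists have medians between 0.63 and 1.24. The Hox, growth arrest, interferon, keratinization and hemidesmosome lists lie at -0.41, -0.40, -0.35, -0.33 and -0.33.

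Dnmt3l and Dnmt3b, of de novo DNA methylation, rose in both cassettes. Among 14 measured genes of the machinery 3 rose and 0 fell (all probe sets: 1.34% and 1.07%), with a median of 0.14. Dnmt3l, the catalytically inactive partner of the de novo methyltransferases, went from 68.0 and 56.3 to 1561 and from 112.3 and 76.3 to 815.5 (3.90, SE 0.39, adjusted p = 0.0252). Dnmt3b rose from 190.3 and 249.1 to 1211 and from 271.2 and 380.2 to 1308 (2.25, SE 0.21, adjusted p = 0.0231), close to the iPSC clones at 1330 to 1840. Dppa3, which also protects DNA from methylation, was the remaining gene. The maintenance enzyme Dnmt1 lay between 1513 and 2714 on all 6 arrays (-0.13, SE 0.23).

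Of 28 measured germline genes 3 rose and 0 fell (median 0.14), and those 3 stayed below the level of the iPSC clones. Over all probe sets the shares called were 1.34% higher and 1.07% lower. At an unadjusted p under 0.05 in limma 11 of the 28 were higher and 0 lower, beside 2006 and 2655 of all 23410 probe sets. In this list 21 changes were positive. Tdrd12, of the piRNA pathway that silences transposons, reached 299.5 and 172.3 from 43.9 to 55.4, where the clones lay at 1847 to 2196. Mael, of the same pathway, reached 183.5 and 86.8 against 751.0 to 921.9. Ddx4 (Vasa) and Dazl differed by 0.26 and 0.39. Of 23 genes measured for the imprinted list 2 rose, Peg10 and Zim1, and 0 fell (median 0.39). The entry for H19 was matched through a synonym to Nckap1, a different gene, which is in this count and median. Zim1, a zinc finger gene, reached 852.0 and 619.4 from 109.3 to 254.1, above the clones at 152.9 to 164.8 (1.94, SE 0.28, adjusted p = 0.0468).

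Beside the pluripotent cells, the shared gains did not all lie short of the end state. In 93 of the 261 shared gains (35.6%) both day 18 signals were at least 2-fold above all 6 iPSC and mESC arrays, against 400 of all 23410 probe sets (1.71%). In 31 (11.9%) they were at least 2-fold below all 6, against 334 of all (1.43%), and the other 137 were in neither class. The first class held Cer1, Tpbpa, Otx2, Eomes, Lhx1, Dkk1, Foxa2, Gata6, Fgf5, Fgf8 and Plac1, and the second class genes such as Tdrd12 and Mael. Of the 120 shared losses, 3 ended above all 6 pluripotent arrays (2.5%) and 6 below (5%). Since the rule that chose shared gains asked for high day 18 signals, these shares are a description. The median of the 261 gains was 6.95 on day 8 and 9.24 on day 18 in low-KLF4 on the log2 scale, and 6.89 then 9.19 in high-KLF4. In the iPSC clones it was 8.39 and 8.30, and in mESCs 8.12. Days 2 and 4, which the rule did not use, gave 6.76 and 6.84 in low-KLF4 and 6.74 and 6.63 in high-KLF4, so that the genes as a set were still near their early level on day 8. The 120 losses were at 10.00 and 10.21 on days 2 and 4 in high-KLF4, 10.35 on day 8 and 8.42 on day 18, and in low-KLF4 at 9.54, 9.92, 9.61 and 7.63.

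The largest fall was that of Krt6b, a keratin of activated and stratified epithelium. Its signal was 1244 and 1272 on day 8 and 77.4 on day 18 in low-KLF4, and 4781 and 6134 then 399.0 in high-KLF4 (-3.89, SE 0.14, adjusted p = 0.00259). Low-KLF4 ended near the iPSC clones (51.9 to 65.5), while the keratinocytes stood at 2729 and 4033. Aldh1a1, which makes retinoic acid from retinal, fell from 764.1 and 1263 to 111.4 and from 1039 and 1375 to 158.0 (-3.03, SE 0.25, adjusted p = 0.0173). Crabp2, a retinoic acid carrier, fell by 2.11 on the log2 scale, so that these changes ran opposite to that of Cyp26a1. Ano1, a calcium-activated chloride channel, fell from 1190 and 1295 to 184.3 and from 1929 and 3084 to 301.8 (-2.88, SE 0.22, adjusted p = 0.0149). Ano3, of the same family, fell by 2.95. Nefl, the light neurofilament chain, fell from 2600 and 2128 to 347.3 and from 3969 and 4279 to 720.0 (-2.64, SE 0.13, adjusted p = 0.00703).

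Epidermal genes leaned lower as a list, but few passed the adjusted test. In the keratinization list, cornified envelope included, 7 of 33 changes were positive. At an unadjusted p under 0.05 in limma there were 8 lower and 0 higher, beside 2655 and 2006 of all 23410 probe sets. The median was -0.33, which was -0.04 in low-KLF4 and -0.61 in high-KLF4. By the adjusted limma test 2 fell and 0 rose. The pair were Krt6b and Anxa8, an annexin of stratified epithelium (2256 and 2705 to 392.1, and 3985 and 4467 to 893.0; adjusted p = 0.0103). Tgm3, a transglutaminase of the cornified envelope, had clear losses in both cassettes but differed by -2.73 with an adjusted p of 0.116. Krt14 differed by -1.86 (adjusted p = 0.121), Krt5 by 0.41 and Sbsn by 0.58. Ehf, an ETS factor of epithelium, fell from 577.0 and 539.2 to 142.6 and from 2806 and 2986 to 516.6 (-2.23, SE 0.14, adjusted p = 0.0118). It was the 1 of 18 epithelial transcription factors that fell, and Foxa1 the 1 that rose (median 0.18). Ovol1, the factor the study followed, differed by -0.69 (adjusted p = 0.379).

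Other epithelial lists held no call. In limma 0 rose and 0 fell of 33 tight junction, desmosome and polarity genes (2 and 4 at an unadjusted p under 0.05), of 12 hemidesmosome, laminin and integrin genes (0 and 2), of 18 epidermal lipid barrier genes (0 and 3), of 21 epidermal proteases and inhibitors (4 and 0) and of 6 simple epithelial keratins (2 and 0). Among the last, Krt18 and Krt7, keratins of simple epithelium, were clear gains in both cassettes with changes of 2.42 and 2.03 and adjusted p of 0.0547 and 0.0585. Of the genes named by the study, Epcam differed by 0.32, Cdh1 by 0.27, Cldn4 by 0.42, Ocln by -0.66, Nt5e by -0.30, Itga6 by -0.32 and Itgb4 by -1.69 (adjusted p = 0.0734), and 0 of 11 passed the test in either direction (0 and 1 unadjusted). Cdh1, E-cadherin, already had day 8 signals of 1829 to 4445 where the iPSC clones lay at 3433 to 4195.

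Hox genes carry positional identity of the embryonic trunk and limbs. Of 37 measured 2 fell and 0 rose, with a median of -0.41, and 16 lay below all day 8 signals on both day 18 arrays. At an unadjusted p under 0.05 there were 17 lower and 0 higher, beside 2655 and 2006 of all 23410 probe sets, and 6 of the 37 changes were positive. Hoxc8 fell from 860.9 and 752.8 to 297.1 and from 959.3 and 1222 to 276.1 (-1.71, SE 0.18, adjusted p = 0.0271), and Hoxc6 by 0.71. Hoxd13, the most 5' gene of its cluster, differed most (-2.36, adjusted p = 0.132). Of 15 surface markers of reprogramming, Cd44, a hyaluronan receptor lost early from cells that progress, ended at 501.3 and 869.7 from 1607 to 2458 (-1.54, SE 0.15, adjusted p = 0.0234). Kit, the stem cell factor receptor, rose by 2.13 (SE 0.27, adjusted p = 0.038).

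Markers of other cell types moved with the changes in part. Of 13 endothelial markers, Cdh5 (VE-cadherin) rose and Tek (the angiopoietin receptor TIE2) fell. The list had 10 positive changes, with 6 higher and 1 lower at an unadjusted p under 0.05 and a median of 0.24. Cdh5 went from 94.6 and 93.5 to 1410 in low-KLF4 and from 96.3 and 85.2 to 551.4 in high-KLF4 (3.26, SE 0.31, adjusted p = 0.0227). Tek fell from 829.7 and 1293 to 125.8 and from 781.3 and 888.5 to 159.5 (-2.71, SE 0.25, adjusted p = 0.0217), below the iPSC clones at 309.7 to 428.2. Of 17 neural markers Map2 fell (-1.46, SE 0.21, adjusted p = 0.05 after rounding), 0 rose, and Syt1 and Fabp7 had clear losses in both cassettes. Of 19 immune cell markers 0 passed in limma (6 higher and 0 lower unadjusted, median 0.31), with Lyz2, a lysozyme, at 111.0 in low-KLF4 and 433.1 in high-KLF4 on day 18 from 44.7 to 62.6. The summed signal of the immune list was 2455 and 4005 then 4581 in low-KLF4, and 6647 and 8039 then 5424 in high-KLF4. In high-KLF4 that sum was set largely by Srgn (3500 and 3695 then 1306) and Laptm5 (1352 and 1963 then 723.6), and did not follow the members with an unadjusted p under 0.05, which were all higher. The part of these cells in the changes was not tested.

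Fibroblast genes could not be placed, because the day 8 arrays themselves differed. Of 38 mesenchymal and fibroblast genes 0 were called by limma (2 and 0 unadjusted), with a median of 0.12, and the second day 8 array minus the first was -2.02 in low-KLF4 and -1.70 in high-KLF4 as a median over the list. Pdgfra, a receptor of fibroblasts and of primitive endoderm, was at 816.7 and 220.0 on day 8 and 1927 on day 18 in low-KLF4, and at 833.6 and 221.5 then 1778 in high-KLF4 (2.12, SE 0.75, adjusted p = 0.218). The iPSC clones lay at 100.2 to 113.4. Matrix metalloproteinases and TIMPs (18), interferon response (27), muscle (10), cell cycle (34), growth arrest (19) and glycolysis genes (24) had 0 calls in each direction in limma, with medians of 0.14, -0.35, 0.06, 0.04, -0.40 and 0.19. At an unadjusted p under 0.05 these lists had 2, 0, 3, 1, 2 and 5 genes higher and 0, 5, 0, 2, 7 and 2 lower. Through matched synonyms the glycolysis list holds Pigq for the entry Gpi1, and the fibroblast list Loxl3 for Loxl2. Among them Ifit1, an interferon-induced gene, ended at 198.5 and 238.8 from 508.4 to 1407 on day 8 (-2.10, adjusted p = 0.0867).

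Other changes were seen in 1 cassette alone. A gain or loss was given to 1 cassette where the day 18 signal of the other did not pass its nearest day 8 signal by 0.32 log2 units in the same direction. Low-KLF4 alone had 62 gains (0.265%) and 67 losses (0.286%), and high-KLF4 alone 57 gains (0.243%) and 147 losses (0.628%). At this threshold the gains of 1 cassette, both sets added, were fewer than the 261 shared gains, and the losses more than the 120 shared losses. A test of the difference itself, the interaction of cassette and day in limma, called 0 probe sets in each direction. At an unadjusted p under 0.05 it had 770 of 23410. Its spread comes from the day 8 pairs alone, whose same-numbered arrays deviated together, so this count does not measure how many probe sets differ. With a term for the day 8 replicate number, 1583 more positive in high-KLF4 and 1249 more negative had such a p, and 0 were called. A fit of all 18 arrays in 12 groups called 26 more positive in high-KLF4 and 32 more negative (1082 and 1146 unadjusted). No gene named here for 1 cassette is therefore shown to differ between cassettes by the 6-array fit.

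High-KLF4 losses were the largest of these sets at 2-fold, while at 1.5-fold the low-KLF4 losses were more (590 against 450). They held epidermal genes that were low in low-KLF4 cells on day 8 already. Krt90, a type II keratin, went from 1637 and 3031 to 149.9 in high-KLF4 and was 130.0 and 130.2 then 139.2 in low-KLF4. Slurp1, a secreted keratinocyte protein, went from 2178 and 4499 to 217.1 in high-KLF4 and was 127.5 and 121.6 then 150.9 in low-KLF4. Krt16, a keratin of activated epidermis, went from 2255 and 2760 to 231.8, with low-KLF4 at 123.7 and 119.1 then 101.4. In each of these the high-KLF4 day 18 signal had come down towards the low-KLF4 arrays and still lay above all 3 of them. Krt84, Ly6g, Cwh43, Sprr3 and Gpr50 complete the 8 with the widest gap.

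Low-KLF4 gains included genes that high-KLF4 cells already had on day 8. Phlda2, an imprinted gene that restrains placental growth, rose from 377.8 and 452.8 to 3510 in low-KLF4 and was 4443 and 6243 then 4862 in high-KLF4. Gpa33, an epithelial surface antigen, went from 172.5 and 181.5 to 1476, beside 1488 and 3432 then 1839. Serpinb9b, a protease inhibitor, went from 166.6 and 122.2 to 720.5, beside 1312 and 1297 then 1437. Cemip, which takes part in hyaluronan breakdown, went from 300.9 and 201.0 to 1417, beside 973.3 and 1428 then 909.3.

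High-KLF4 gains were of both kinds. Zic5, a zinc finger factor, went from 103.3 and 98.4 to 648.6 in high-KLF4 and was already 556.7 and 890.6, then 1030, in low-KLF4. Cxcl2, a chemokine, went from 65.9 and 66.1 to 294.7 and stayed at 61.2 and 62.4 then 55.2 in low-KLF4. Gkn2, a stomach mucosal protein, went from 58.4 and 51.2 to 242.3, with low-KLF4 at 64.1 and 64.1 then 68.0. Low-KLF4 losses included Bcl11a, a zinc finger repressor, which went from 915.5 and 866.5 to 191.5 where high-KLF4 had 200.1 and 136.8 then 128.1. Slc7a11, the cystine transporter, went from 393.7 and 274.7 to 65.2, with high-KLF4 at 177.4 and 225.8 then 212.0. Krtdap, a keratinocyte differentiation protein, went from 895.7 and 1068 to 238.1, with high-KLF4 at 1914 and 1858 then 1528.

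**Figure D4:**
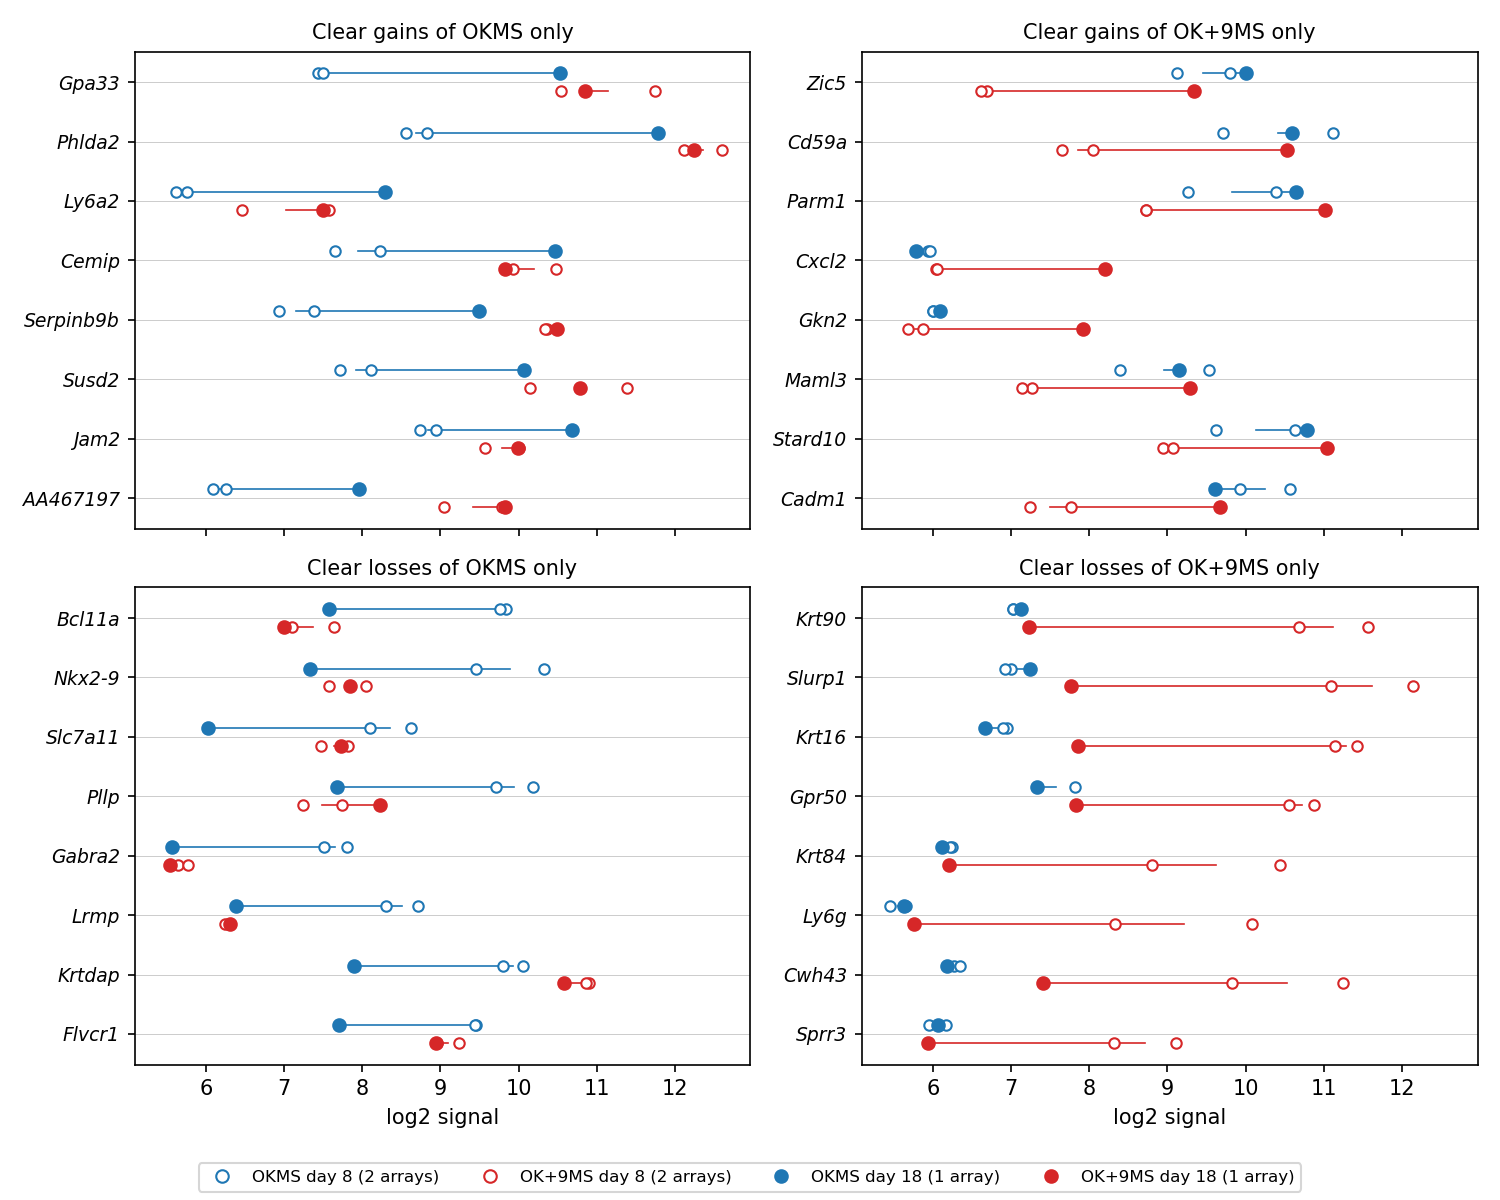
Log2 signal (horizontal axis) of the 8 genes with the widest gap in each class, with open marks for the day 8 arrays, a filled mark for day 18 and a line from the day 8 mean to day 18, low-KLF4 (OKMS) in blue and high-KLF4 (OK+9MS) in red. In Krt90, Slurp1 and Krt16 the high-KLF4 line falls towards the low-KLF4 level, and in Phlda2 and Gpa33 the low-KLF4 line rises towards the high-KLF4 level.

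Set side by side, the cassettes lay closer together on day 18 in most genes of 3 of these sets and further apart in most low-KLF4 losses. The distance was smaller on day 18 in 146 of 147 losses of high-KLF4 alone, 52 of 62 gains of low-KLF4 alone, 37 of 57 gains of high-KLF4 alone and 25 of 67 losses of low-KLF4 alone. Over the 147 losses of high-KLF4 alone the median of high-KLF4 minus low-KLF4 was 1.83 on day 8 and 0.13 on day 18, and 119 then 9 genes were at least 2-fold apart. Over the 62 gains of low-KLF4 alone the median was 1.19, then -0.29, with 34 and 4 genes at least 2-fold apart. The 57 gains of high-KLF4 alone went from -0.85 to 0.35 (23 then 13 apart), and the 67 losses of low-KLF4 alone from -0.45 to 0.64 (18 then 9 apart). These sets were chosen on the same arrays, so the medians are a description. Over all 23410 probe sets 761 were at least 2-fold apart on day 8 and 225 on day 18, with day 8 the mean of 2 arrays and day 18 a single array, and 10574 had a smaller distance on day 18.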

How the data were processed

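RNA of sorted mCherry+ cells was hybridised to Affymetrix GeneChip Mouse Gene 1.0 ST arrays, whose probe sets span each transcript. The authors made the deposited signal intensity values with RMA in GeneSpring (background correction, quantile normalization and summary of probe sets, linear scale, 20.2 to 19538.7, array medians of 145.4 to 161.6 on the 6 arrays used), with no detection call. Log2 was taken here of each deposited intensity. Of 28853 probe sets, 21789 name 1 gene, 1621 several and 5443 none in the platform annotation, and the 23410 with a symbol were tested. The number of arrays limits the precision.

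The 4 day 8 arrays are 2 per cassette from independent experiments, and from which experiment each day 18 array came is not given in the sources used here. limma 3.58.1 (R 4.3.3) fitted cassette and day to the 6 arrays (3 residual and 1.84 prior degrees of freedom), and a second fit of the 4 groups (2 and 1.67) tested the interaction, each with Benjamini-Hochberg adjustment over 23410 probe sets. The fits were run on simulated data with independent errors for each array, which do not copy the shared deviations of same-numbered day 8 arrays. Python 3.11.15, pandas 2.3.3, numpy 2.4.6 and matplotlib 3.10.9 were used for the counts and plots.

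The 28 gene lists had 616 entries, 576 of them measured. Entries without a probe set under their own symbol were matched through synonyms. This put a different gene in place of H19 (Nckap1), Gpi1 (Pigq) and Loxl2 (Loxl3), and the counts and medians of their lists include these. Named genes are the 15 largest rises and falls, the 8 widest gains and losses of each cassette alone, the 2 highest and lowest of each list, the cassette factors and genes the study names; others were named after their values were seen. Comparisons, lists and rules were chosen with earlier results of these data known. Alternatives were other fits, normalizations, filters, thresholds and arrays left out; another 2, the clear changes without each replicate number, were added after the data were seen. Motifs and sequences are from RefSeq tables (GRCm38.p6).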

Additional observations from a re-analysis of the deposited data

Results flagged for a closer look

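Srgn, the proteoglycan core protein serglycin that is also counted among the immune cell markers, moved in opposite directions in the cassettes. Its signal was 125.8 and 326.5 on day 8 and 798.6 on day 18 in low-KLF4, and 3500 and 3695 then 1306 in high-KLF4. The change in high-KLF4 minus that in low-KLF4 was -3.44 on the log2 scale (limma interaction, adjusted p = 1).

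Zdbf2, an imprinted gene, moved the other way, from 547.4 and 1113 to 238.3 in low-KLF4 and from 117.4 and 133.0 to 304.7 in high-KLF4. Its difference of changes was 3 on the same scale (limma interaction, adjusted p = 1). Both genes stand here because every day 18 signal lay at least 2-fold outside the day 8 signals of its own cassette, in opposite directions, and neither difference passed the adjusted test.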

How the results depend on the processing

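The 313 higher and 250 lower calls of limma became 1745 and 2512 in a fit of all 18 arrays in 12 groups and 1243 and 1627 with a replicate block. Numbers pair only the day 8 arrays, whose same-numbered deviations correlate at 0.735, and each day 18 array carries the number 1 merely as the sole array of its group, so the replicate block reads little beyond the day 8 arrays. The methods' t-test gave 54 and 7 after Benjamini-Hochberg adjustment, and 1728 and 2000 unadjusted. Leaving out arrays gave 0 to 719 higher and 0 to 703 lower. Without the cassette block 348 and 230 were called, without the dimmest 30% of probe sets 248 and 204, after a second quantile normalization 336 and 220, after median centring 267 and 280, with limma-trend 424 and 233, with robust eBayes 289 and 214 and over all probe sets 356 and 260. The interaction had 26 and 32 calls in the 12-group fit and 0 in each other fit run; without a day 18 array it cannot be estimated, since 1 cassette then has no day 18 value, and without both day 8 arrays of 1 number it has no residual degrees of freedom, so these were not run.

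Shared gains (261) numbered 568 at 1.5-fold, 114 at 3-fold, 415 against the day 8 mean and 457 to 562 with 1 day 8 array per cassette. Shared losses (120) numbered 519, 26, 254 and 314 to 397. At 1.5-fold and 3-fold, low-KLF4 gains (62) numbered 305 and 14, high-KLF4 gains (57) 286 and 14, low-KLF4 losses (67) 590 and 9, and high-KLF4 losses (147) 450 and 42. With 1 day 8 array per cassette the ranges were 56 to 175, 58 to 108, 91 to 155 and 111 to 407. Median centring gave 115 low-KLF4 losses, and the day 8 mean 242 high-KLF4 losses. Over the alternatives, named genes kept direction and side of the threshold in 2383 cases, fell short of it in 282, newly passed it in 161 and, where no test applied, moved beyond the replicate spread in 50, with 0 reversals. List medians moved beyond that spread in 49 of their cases and not in 231. The cause of these shifts was not tested.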
